A study of Mus musculus with 4 samples.

Results

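The mitochondrial ribosomal protein genes were taken as all symbols that start with Mrpl or Mrps followed by a number. They numbered 76 of the 22552 symbols, 47 named for the large and 29 for the small subunit. All 76 had a mean of at least 1 FPKM (fragments scaled to transcript length and to the mapped fragments of the library) in both same-numbered pairs of libraries, so none was left out. RNA had been sequenced from cultured spermatogonial stem cells, the testis cells from which sperm production is renewed, of DBA/C57 F1 male mice aged 5 to 7 days. The cells were clones with an inducible knockout of the microRNA miR-202, and each condition had 2 of them, named iKO-SC-1 and iKO-SC-2. The genotype label of every library reads wild type. After a night on laminin, 2 cultures received the inducer doxycycline at 10 µg/ml for 2 days and 2 were kept without it. The drug and the knockout were given together, so their effects cannot be told apart.

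The mitochondrial ribosome translates the few proteins that the mitochondrial genome encodes, all of them parts of the respiratory chain and ATP synthase. Its rRNAs come from mitochondrial DNA, but all of its proteins are encoded in the nucleus, made in the cytosol and imported. Tetracyclines such as doxycycline bind bacterial ribosomes, and doxycycline is known to inhibit mitochondrial translation as well. The tables held no mitochondrially encoded symbol, so neither the rRNAs nor the translated mRNAs could be measured beside the protein genes.

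The libraries summed to between 309153 and 320243 FPKM. Their depth in reads is unknown, and from whole-number steps among the lowest values the relative depths were 1 and 1.22 with doxycycline and 1.33 and 1.55 without. All 10 spermatogonial markers were measured, among them the GDNF receptor gene Gfra1 at 87.3 to 94.4 FPKM and the germ cell gene Dazl at 284 to 300 FPKM. The 10 feeder fibroblast markers summed to 158 and 147 FPKM with doxycycline and to 156 and 135 FPKM without, led by Fn1 and Col1a1. For the 9 of them that were tested, the median log2 change with doxycycline was 0.15, at 0.06 in the replicate 1 pair and 0.22 in the replicate 2 pair. Of these, 5 were higher in both pairs (55.6%, against 32.8% of all tested genes) and 2 lower (22.2%, against 34%), a difference that was not tested. The median was -0.01 over the spermatogonial markers and -0.002 over all tested genes. The Sertoli list summed to 10.8 to 13.6 FPKM, led by Sox9 at 2.69 to 4.32 FPKM, with Fshr at 0 throughout. The Leydig and peritubular list summed to 8.09 to 13.7 FPKM, of which the smooth muscle actin gene Acta2 made up 6.47 to 12.2 FPKM, with Cyp17a1 and Hsd3b1 at 0. The macrophage and blood list summed to 4.65 to 7.74 FPKM, led by Cd68 at 3.52 to 4.63 FPKM and Hba-a1 at 0.412 to 2.62 FPKM, with Hbb-b1 at 0. In such bulk libraries, fewer cells of a type and less RNA per cell cannot be told apart.

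The sequences most relevant to the comparison are those of the targeted microRNA and of the members that moved furthest. miR-202 represses mRNAs through a seed, bases 2 to 8 of each arm, shown in capitals in the RefSeq sequences below (GRCm38.p6, chromosome 7, minus strand).
mmu-miR-202-3p: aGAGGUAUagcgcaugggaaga
mmu-miR-202-5p: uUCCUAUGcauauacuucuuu

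In the longest annotated 3' UTR of each gene in GENCODE M21, a match to bases 2 to 8, or to bases 2 to 7 followed by A, was found for the 3p arm in 4 of 76 members (5.26%) and in 13.9% of 10520 tested genes with a UTR. For the 5p arm it was found in 7 members (9.21%) and in 15.8% of tested genes. The UTRs of the members were shorter, with a median of 358 bases against 1146. The 3p matches of the 4 genes are shown with their flanks, the match in capitals. Mrpl15 has 2 separate ones, and in Mrpl19 and Mrpl34 the A that follows the capitals makes a match to bases 2 to 7 as well.
Mrpl15: cagagtggcTACCTCAcatagaaga
Mrpl15: actggtcagATACCTCcaggctcag
Mrpl19: ggcatacatATACCTCatgatcagg
Mrpl34: gcacctgcgATACCTCatccatttc
Mrps25: tgccatgacTACCTCAgaacaccat

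None of these 4 genes passed the test between conditions. Mrpl34, a bacterial L34 counterpart whose match lies in a UTR of 284 bases, read 66.6 and 68.2 FPKM in the treated libraries, where the untreated ones had 69.6 and 69.6 FPKM. Mrpl15, Mrpl19 and Mrps25 had log2 changes of 0.02, 0.07 and 0.13. The 4 members with a 3p match had a median log2 change of 0.04 and the others one of 0.01. The members with a 5p match, among them Mrps2 and Mrps35, had a median of 0.001 against 0.01 for those without. Over all tested genes with a UTR, the medians were -0.008 with a 3p match and 3.5e-05 without. For the 5p arm they were -0.01 and 0.0007. A match of these letters is a description and not a shown target site.

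The levels of the members spanned from 3.77 to 219 FPKM in the mean of all 4 libraries, with a median of 33.8 FPKM against 11.5 FPKM for all 11924 tested genes. Medians were alike for both subunits, 34.2 FPKM for the Mrpl and 33.4 FPKM for the Mrps symbols. The most abundant was Mrpl52, a large-subunit protein without a bacterial counterpart, at 206 and 216 FPKM when treated and 220 and 235 FPKM when untreated. Next came 2 small-subunit genes, Mrps21 at a mean of 171 FPKM and Mrps16 at 129 FPKM, both with bacterial counterparts, and then Mrpl33 at 110.5 FPKM and Mrpl20 at 107 FPKM. Mrps16 overlapped between conditions, at 129 and 129 FPKM when treated and 122 and 135 FPKM when untreated. Mrps21 did not keep its direction either, at 173 FPKM against 161 in the replicate 1 pair and 159 against 189 in the replicate 2 pair.

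At the low end stood Mrpl23, a protein at the exit of the tunnel through which the nascent chain leaves, with 3.07 and 4.76 FPKM with doxycycline and 3.72 and 3.54 FPKM without. Mrps25 followed at a mean of 5.17 FPKM, then Mrpl19 at 6.32, Mrps36 at 6.44 and Mrpl35 at 6.48. The lowest mean of a same-numbered pair was 3.40 FPKM, for Mrpl23, so no member lay close to the limit of 1 FPKM and none below it. The deposited confidence bounds of doxycycline replicate 1, the library for which they are used, had half-widths with a median over the members of 7.39% of the value. It was widest for Mrpl23 at 41.7% and Mrps36 at 29.7%, and narrowest for Mrpl38 at 4.15%.

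**Figure D1:**
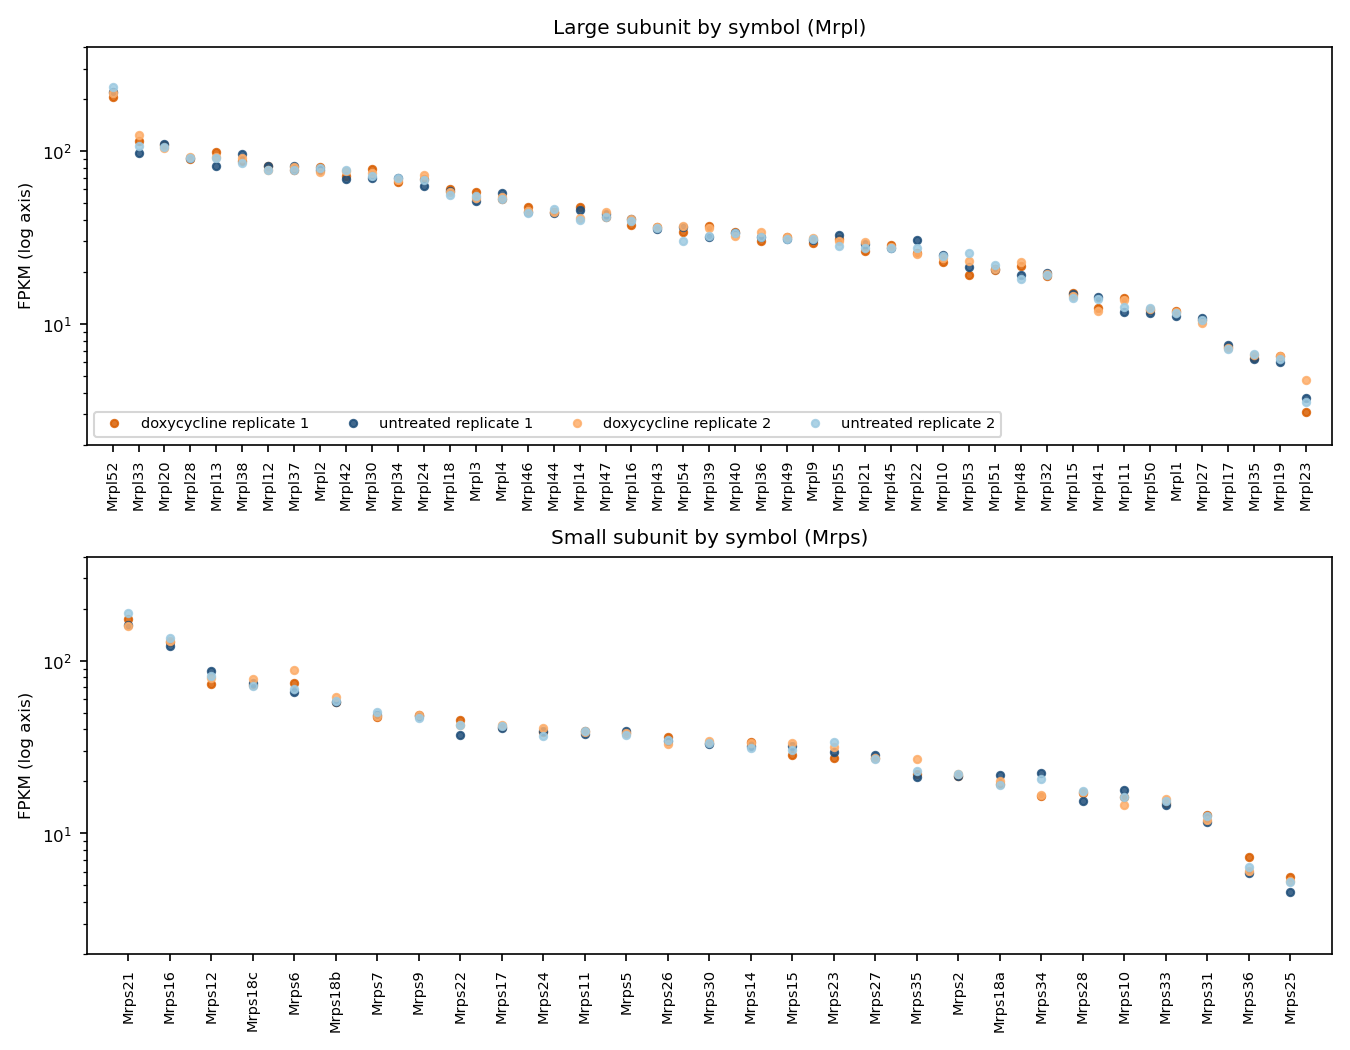
FPKM (log axis) of each member in each of the 4 libraries, ordered by mean level within the large (top) and small (bottom) subunit by symbol; orange points are doxycycline libraries and blue points untreated ones, replicate 1 in the darker shade. The 4 points of a gene lie close together compared with the spread between genes, which runs from 3.77 FPKM (Mrpl23) to 219 FPKM (Mrpl52).

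Libraries of the same condition were close to each other. The median coefficient of variation (SD over mean, n = 2) of a member was 3.25% with doxycycline and 3.66% without. Between the replicate numbers, which may stand for the clones, 5 members differed by more than 0.15 in the mean log2 level. Mrpl53, Mrpl23, Mrps23 and Mrps35 were higher in replicate 2, by 0.24, 0.22, 0.20 and 0.20, and Mrpl14 was lower by 0.20. Mrpl53, for example, stood at 19.3 and 21.5 FPKM in both replicate 1 libraries and at 23.1 and 25.6 FPKM in both replicate 2 libraries.

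Between conditions, 0 of the 76 mitochondrial ribosomal protein genes were called (limma adjusted p under 0.05) in the fit without regard to replicate number. That fit of 2 against 2 libraries called 0.277% of all tested genes, so a count of 0 does not show that no member changed. With the replicate number as a block, 3 members were called (3.95%, against 3.7% of all tested genes). The members together summed to 3383 and 3431 FPKM with doxycycline and to 3353 and 3402 FPKM without, a difference of 0.887% in the replicate 1 pair and 0.851% in the replicate 2 pair. As a share of all FPKM in a library they made up 1.08% and 1.07% with doxycycline and 1.08% and 1.08% without. The sums of all symbols differed by 1.56% and 1.82%. Mrpl symbols summed to 0.810% and 1.47% more with doxycycline in the respective pairs, and Mrps symbols to 1.02% more and then -0.219%.

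Over all genes, limma's test on log2(FPKM + 1) at an adjusted p under 0.05 called 33 of 11924 genes (0.277%), 26 of them higher (0.218%) and 7 lower (0.0587%) with doxycycline, and among the 76 members it called 0. At an unadjusted p under 0.05 there were 10 members (13.2%) against 15.1% of all tested genes. The lowest adjusted p of a member was 0.0724, for Mrps34. With the replicate number as a block, which takes out the difference between replicates 1 and 2, 441 genes passed (3.7%), 325 higher (2.73%) and 116 lower (0.973%). Among them were 3 members, Mrpl33 and Mrps6 higher and Mrps34 lower, while 17 members (22.4%) were under an unadjusted p of 0.05 against 22.4% of all genes. The share of members called with the block is near that of all genes, and the shares at an unadjusted p are below and at their background. Across the 76 members, the deviations of libraries that share a number had a correlation of 0.00107. Single members such as Mrpl53 still differed by replicate number in both conditions.

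Median log2 changes were 0.01 over the Mrpl and 0.02 over the Mrps genes, against -0.002 over all tested genes. Within pairs the Mrpl median was -0.01 in replicate 1 and 0.03 in replicate 2, and the Mrps median 0.01 in each. The changes ran from -0.36 to 0.26, and 57 of the 76 (75.0%) were under 0.1 in size, compared with 63.8% of all tested genes and 67.5% of the 9149 genes within the members' range of levels. The 95% intervals of the change had a median half-width of 0.13 and included 0 for 66 members, and for all 76 they lay inside 0.5 in both directions. This bound holds on the log2(FPKM + 1) scale, on which changes of low genes are understated. The intervals are not adjusted over genes, so they do not exclude a larger change for every member at once.

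The direction of change was often not shared between the pairs. In both pairs 25 members were higher with doxycycline and 15 lower, 40 of 76 with the same sign (52.6%), whereas 32.8% of all tested genes were higher and 34% lower in both, 66.8% together. Across the 76 genes the changes in the pairs had a Pearson r of 0.23, compared with 0.57 across all tested genes, which is a description over genes that share their libraries. Both doxycycline libraries stood above both untreated ones for 17 members (22.4%, background 23.5%) and below them for 10 (13.2%, background 24.9%). No test of the difference from other genes was made.

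**Figure D2:**
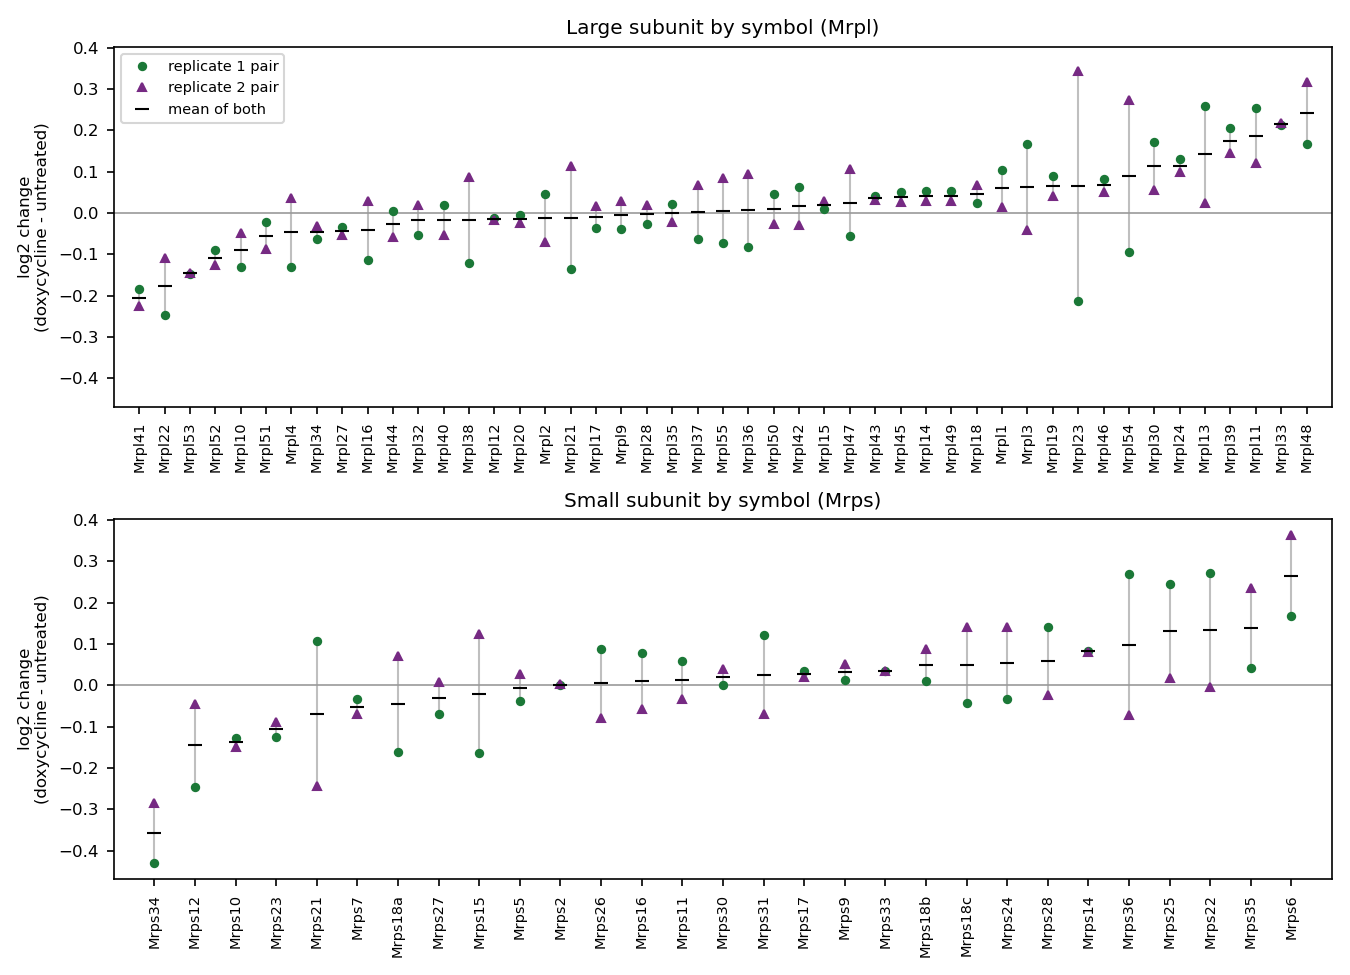
Log2 change with doxycycline on the log2(FPKM + 1) scale for each member in the replicate 1 pair (circles) and the replicate 2 pair (triangles), ordered by their mean (dashes), for the large (top) and small (bottom) subunit by symbol. Most means lie within 0.1 of 0, Mrps34 is lowest at -0.36 and Mrps6 highest at 0.26, and 40 of the 76 genes have the same sign in both pairs.

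The member that stood lowest with doxycycline was Mrps34, a small-subunit protein found in mitochondria but not in bacteria (chromosome 17, 25032065 to 25033218, mm9). It measured 16.4 and 16.8 FPKM in treated against 22.4 and 20.7 FPKM in untreated libraries. Both treated libraries lay below both untreated ones, by 26.9% in the replicate 1 pair and 18.8% in the replicate 2 pair. The mean was 0.770 times that of the untreated libraries, and the log2 change was -0.36 ± 0.06 (SE), with a limma adjusted p of 0.0724 and 0.0164 with the block. It was the one member called lower with the block. Its half-width in doxycycline replicate 1 was 12.9% of the value.

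Mrps6, the counterpart of bacterial S6 on the platform of the small subunit, was highest in change (chromosome 16, 92058581 to 92112472, mm9). It read 74.1 and 87.8 FPKM in the treated libraries, where the untreated ones had 65.9 and 68.1 FPKM, so the groups did not overlap, and the treated libraries differed from each other more than the untreated ones. The log2 change was 0.26 ± 0.08 (SE), with a limma adjusted p of 0.221 and 0.0406 with the block, and it was 0.14 without doxycycline replicate 2. In the mm9 table its locus overlaps Slc5a3, the sodium-coupled myo-inositol transporter, and in GENCODE M21 both genes lie on the same strand with starts 52 bases apart. Slc5a3 measured 20.0 and 19.1 FPKM in treated against 16.7 and 15.7 FPKM in untreated libraries, a log2 change of 0.26 (limma adjusted p = 0.149, and 0.0309 with the block). How reads in the stretch that both genes share were assigned is not given in the sources used here, so their separate changes are uncertain.

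Mrpl33, a small protein of the large subunit that corresponds to bacterial L33, read 114 and 124 FPKM in the treated libraries, where the untreated ones had 97.9 and 106 FPKM. It was 16.0% higher in the replicate 1 pair and 16.5% higher in the replicate 2 pair, the closest agreement of pairs among the members that passed with the block. The log2 change was 0.22 ± 0.06 (SE), with a limma adjusted p of 0.214 and 0.0229 with the block. Mrpl48, a mitochondria-specific protein of the central protuberance, measured 21.6 and 22.9 FPKM in treated against 19.1 and 18.2 FPKM in untreated libraries. Its groups did not overlap and its log2 change of 0.24 ± 0.05 (SE) passed neither fit, with limma adjusted p of 0.155 and 0.0543. Its mm9 locus overlaps that of Rab6, whose change was 0.04.

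The promoters of these members are shown for the 3 that the RefSeq table holds, as 250 bases before and 50 after the annotated start (GRCm38.p6), with matches to 3 motifs known from mitochondrial protein genes in capitals. The motifs were GCGCA and GCGC with 1 free base between them for the respiratory regulator NRF1, CCGGAAG for ETS factors such as GABPA, and AAGATGGCG for YY1, each searched on both strands, so that an ETS match can read CTTCCGG. For Mrpl48 the table has 4 starts, of which the one with a match is printed.
Mrps6 promoter, chr16:92058086-92058385, plus strand: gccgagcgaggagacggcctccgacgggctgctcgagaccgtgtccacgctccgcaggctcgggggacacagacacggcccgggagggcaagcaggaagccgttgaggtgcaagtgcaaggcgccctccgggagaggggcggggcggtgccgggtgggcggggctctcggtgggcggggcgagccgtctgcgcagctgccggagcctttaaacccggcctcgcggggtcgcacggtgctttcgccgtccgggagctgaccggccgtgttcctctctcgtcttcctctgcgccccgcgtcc
Mrpl33 promoter, chr5:31613701-31614000, plus strand: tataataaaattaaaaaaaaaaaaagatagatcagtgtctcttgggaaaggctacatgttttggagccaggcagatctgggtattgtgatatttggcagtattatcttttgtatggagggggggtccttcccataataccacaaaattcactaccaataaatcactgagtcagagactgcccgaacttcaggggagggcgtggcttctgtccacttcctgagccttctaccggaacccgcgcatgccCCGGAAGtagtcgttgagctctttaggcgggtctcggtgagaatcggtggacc
Mrpl48 promoter, chr7:100583081-100583380, minus strand: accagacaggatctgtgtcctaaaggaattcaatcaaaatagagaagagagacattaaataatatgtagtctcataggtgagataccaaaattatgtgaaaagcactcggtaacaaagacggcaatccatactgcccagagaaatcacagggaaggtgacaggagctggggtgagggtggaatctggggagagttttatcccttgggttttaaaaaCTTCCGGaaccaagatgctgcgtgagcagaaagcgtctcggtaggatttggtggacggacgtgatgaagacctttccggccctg

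Mrpl33 thus held an ETS match, Mrpl48 held one only at the printed start, which was picked for it, and Mrps6 held none of the 3 motifs in this window. In the shares that follow, a gene counted if any of its starts held the motif. Among the 67 members with a promoter in the table, 24 (35.8%) held the ETS, 12 (17.9%) the NRF1 and 8 (11.9%) the YY1 motif. Shares over the 8516 tested genes with a promoter were 20.6%, 12.2% and 3.75%, and over all 27025 genes that have one they were 9.93%, 5.19% and 1.64%. At least 1 of the 3 was present in 39 members (58.2%) and in 32.6% of the tested genes. Of 57 cytosolic ribosomal protein genes with a promoter, 40.4% held the ETS, 8.77% the NRF1 and 5.26% the YY1 motif. At least 1 was present in 52.6% of them, so a share above that of the tested genes was not particular to the members. The log2 changes of members with and without any of these motifs had medians of 0.01 and 0.02. A match is a description of letters and not of a bound factor.

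Other members among the 10 with the largest change of the same sign in both pairs moved less and passed neither fit. Mrpl39, a mitochondria-specific large-subunit protein, read 36.9 and 35.7 FPKM in the treated libraries, where the untreated ones had 31.9 and 32.2 FPKM. Its groups did not overlap and its log2 change was 0.18 (limma adjusted p = 0.170, 0.0645 with the block). Mrpl11, a protein at the base of the stalk to which translation factors bind, was at 14.2 and 13.7 FPKM against 11.7 and 12.6 FPKM, a log2 change of 0.19. Here too the treated libraries were the higher ones (limma adjusted p = 0.233, 0.110 with the block).

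On the lower side, Mrpl41, another mitochondria-specific member of the large subunit, measured 12.4 and 11.8 FPKM in treated against 14.2 and 14.0 FPKM in untreated libraries. The treated libraries were below the untreated ones in both pairs, and the log2 change was -0.20 (limma adjusted p = 0.208, 0.0761 with the block). Mrpl22, a protein of the exit tunnel, was at 25.6 and 25.5 FPKM against 30.5 and 27.6 FPKM, a log2 change of -0.18. Mrps12, the counterpart of the S12 protein at the decoding centre, was at 73.8 and 79.1 FPKM against 87.6 and 81.7 FPKM, a log2 change of -0.15. Mrpl22 had a limma adjusted p of 0.246 and Mrps12 one of 0.298 (0.0919 and 0.161 with the block). Mrpl53 was lower in both pairs by nearly the same amount, at 19.3 against 21.5 FPKM and 23.1 against 25.6 FPKM. Its groups overlapped, with a log2 change of -0.15 and a limma adjusted p of 0.560 (0.109 with the block). Its change ran from -0.269 without doxycycline replicate 2 to -0.0224 without doxycycline replicate 1, and was -0.267 without untreated replicate 1 and -0.0242 without untreated replicate 2. Without untreated replicate 1, Mrpl22 was at -0.107 and Mrps12 at -0.0948, and without doxycycline replicate 1 Mrps12 was at -0.0950.

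**Figure D3:**
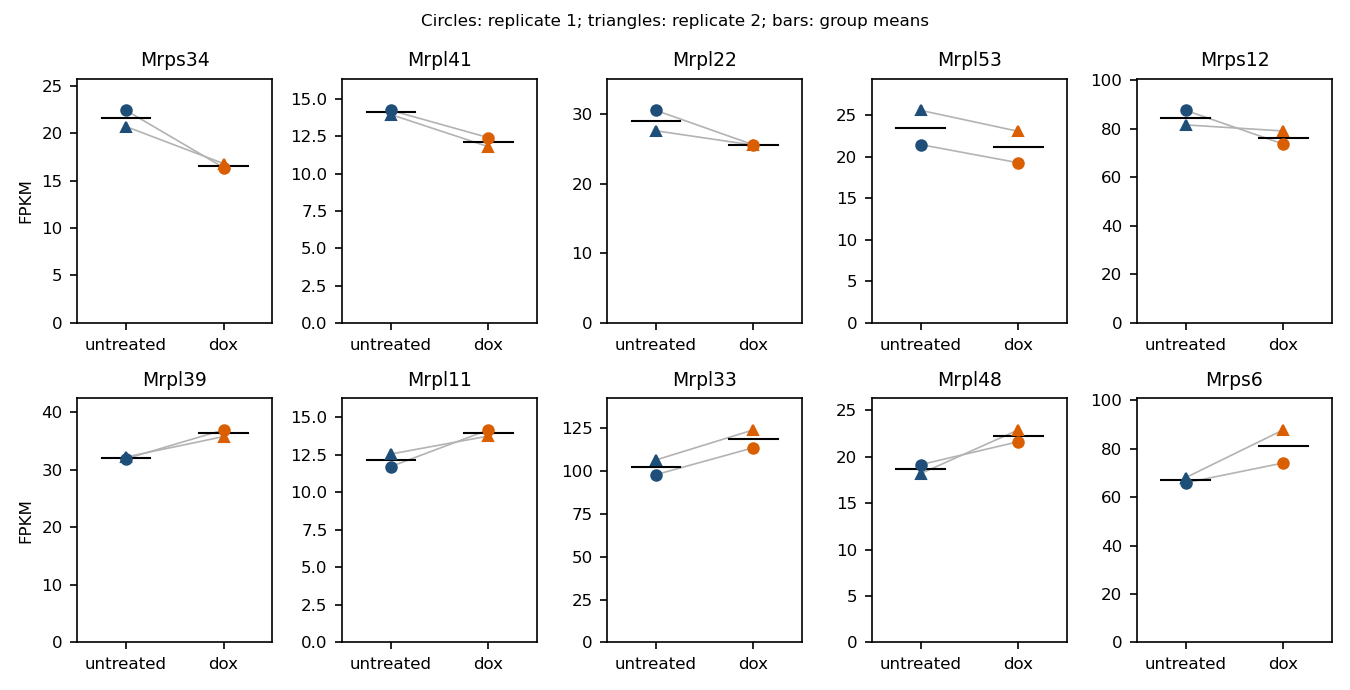
FPKM (axis from 0) in each library for the 10 members with the largest change of the same sign in both pairs; circles are replicate 1, triangles replicate 2, grey lines join same-numbered libraries and black bars are group means. The groups do not overlap except for Mrpl53, where replicate 2 is above replicate 1 in both conditions. The genes were chosen by these same values, which favours groups that do not overlap.

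Members were also read by their place in the ribosome. These regions were put together with the values known and carry no test. In the peptidyl transferase region, where peptide bonds form, Mrpl2, Mrpl3, Mrpl4, Mrpl16 and Mrpl27 had a median log2 change of -0.04, and all 5 were under 0.1 in size. The stalk proteins Mrpl1, Mrpl10, Mrpl11 and Mrpl12 had a median of 0.02, spanning -0.09 to 0.19. Along the exit tunnel, Mrpl22, Mrpl23, Mrpl24 and Mrpl45 spanned -0.18 to 0.11, with Mrpl24 at 68.5 and 72.6 FPKM when treated and 62.4 and 67.8 FPKM when untreated. Of the central protuberance, Mrpl18, Mrpl46 and Mrpl48 were higher in both pairs while Mrpl38 and Mrpl40 were not, with a median of 0.05.

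In the small subunit, the proteins near the decoding site and the path of the mRNA, Mrps2, Mrps5, Mrps12 and Mrps24, had a median of -0.002. Mrps2 was the steadiest of them, at 21.4 and 22.0 FPKM when treated and 21.4 and 22.0 FPKM when untreated. On the platform, Mrps6, Mrps11, Mrps18c and Mrps21 spanned -0.07 to 0.26, and Mrps6 alone was higher in both pairs. Proteins with bacterial counterparts and proteins specific to mitochondria had similar medians, 0.00001 over 29 and 0.01 over 17 genes in the large subunit, and 0.01 over 15 and 0.03 over 10 genes in the small subunit. Their median levels were 39.4 and 34.2 FPKM in the large and 41.5 and 21.2 FPKM in the small subunit.

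Some symbols do not match the protein's place. Mrps18a and Mrps30 encode proteins that sit in the large subunit of the mammalian mitochondrial ribosome, and Mrps36 a protein now assigned to the alpha-ketoglutarate dehydrogenase complex. Mrps30 was nearly level, at 33.2 and 34.2 FPKM when treated and 33.1 and 33.3 FPKM when untreated. Mrps18a was at 19.4 and 20.0 FPKM against 21.9 and 19.0 FPKM, and Mrps36 at 7.35 and 6.06 FPKM against 5.93 and 6.42 FPKM, both with opposite signs in the pairs. The paralogs of Mrps18a, Mrps18b and Mrps18c, which stay in the small subunit, had log2 changes of 0.05 each. With these genes placed by structure, the medians were 0.01 over 49 large-subunit and 0.02 over 26 small-subunit genes.

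In the mm9 table the loci of 9 members (11.8%) overlapped another symbol, against 15.3% of tested genes, and those of 40 (52.6%) overlapped one or had one within 1000 bases, against 37.1%. By strand in GENCODE M21, 24 of the 41 such pairs that could be placed there were head to head, with starts 3 to 935 bases apart. Pairs that could not be placed, such as Mrpl48 and Rab6, were left out, and the same counts over all genes were not made. In 20 of the 24 head-to-head pairs the neighbour was tested as well, and in 11 of the 20 its change had the same sign as that of the member. Mrpl46 and Mrps11, members of different subunits, share such a start region and had log2 changes of 0.07 and 0.01. Their starts are 412 bases apart by the gene ends of GENCODE M21. They are closer in the mm9 loci, where Mrpl46 ends at base 85927975 and Mrps11 starts at base 85928017 of chromosome 7. The neighbour of Mrps34 is Eme2, a DNA repair nuclease subunit 29 bases away on the other strand. Eme2 read 0.379 and 0.766 FPKM in the treated libraries, where the untreated ones had 1.11 and 0.712 FPKM, too low to be tested, and it did not keep a direction between pairs. Another neighbour of Mrps34, the nucleoside diphosphate kinase gene Nme3, had a change of 0.04. Mrpl49 stood head to head with Fau, a cytosolic ribosomal protein gene with a change of 0.30, while its own was 0.04 (limma adjusted p with the block 0.0156 for Fau and 0.591 for Mrpl49).

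Mitochondrial ribosomal proteins that carry another symbol were measured in all 7 cases listed. Of these, 0 passed limma's test in either fit, 1 had an unadjusted p under 0.05 (14.3%, against 15.1% of all tested genes), and the median log2 change was -0.05. The GTP-binding protein Dap3 measured 20.8 and 20.5 FPKM in treated against 19.5 and 19.7 FPKM in untreated libraries, a log2 change of 0.07. Ict1, a peptidyl-tRNA hydrolase built into the large subunit, was at 44.9 and 44.9 FPKM against 49.9 and 51.0 FPKM. It was lower in both pairs, with a log2 change of -0.16 and a limma adjusted p of 0.165 (0.0614 with the block). Mrp63, another large-subunit protein, had a log2 change of -0.08, which was -0.00740 without untreated replicate 2 and -0.148 without untreated replicate 1.

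Factors that work with the ribosome were measured in 16 of 17 cases, and 0 passed limma's test in either fit, with 1 under an unadjusted p of 0.05 (6.25%, against 15.1% of all tested genes). Their median log2 change was 0.01. The elongation factor gene Tsfm read 21.2 and 21.8 FPKM in the treated libraries, where the untreated ones had 24.8 and 23.6 FPKM, below in both pairs, with a log2 change of -0.16 (limma adjusted p = 0.221, 0.104 with the block). The release factor Mtrf1 had a change of 0.18 at a mean of 1.32 FPKM, and the initiation factor Mtif3 one of -0.13. Mtif3 did not keep a direction, at 6.5 against 6.20 FPKM in the replicate 1 pair and 5.14 against 6.70 FPKM in the replicate 2 pair, and without doxycycline replicate 2 its change was 0.0117.

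Of the assembly and RNA modification factors, 21 of 23 were measured. Without the block 0 passed limma's test and 5 were under an unadjusted p of 0.05 (23.8%, against 15.1% of all tested genes). With the block Mpv17l2 was called lower, 1 of 21 (4.76%, near the 3.7% of all tested genes). Again 5 were under an unadjusted p of 0.05 (23.8%, against 22.4%). Mpv17l2, an inner membrane protein needed for ribosome assembly, measured 13.6 and 14.0 FPKM in treated against 17.9 and 17.2 FPKM in untreated libraries. Both treated libraries lay below both untreated ones, and the log2 change was -0.32 ± 0.05 (SE), at an adjusted p in limma of 0.0724 (0.0196 with the block). The median of the list was -0.05, with 12 lower (57.1%, background 34%) and 4 higher (19.0%, background 32.8%) in both pairs. Treated libraries were below untreated ones for 9 of the 21 (42.9%, background 24.9%) and above them for 3 (14.3%, background 23.5%), and the difference from other genes was not tested. The assembly GTPase Mtg1 was at 10.2 and 8.87 FPKM against 11.3 and 13.5 FPKM, a log2 change of -0.35, and Mettl17, a methyltransferase-like protein of the small subunit's assembly, had one of -0.29. Adjusted p in limma reached 0.218 for Mtg1 and 0.263 for Mettl17 (0.0911 and 0.0899 with the block). Without untreated replicate 2 the changes were -0.227 for Mtg1 and -0.157 for Mettl17.

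The cytosolic ribosomal protein genes, which encode the ribosome outside mitochondria, served for comparison. Their 71 tested genes had a median log2 change of 0.11, and the sums over all 79 symbols were 5.46% and 10.9% higher with doxycycline in the respective pairs. Without the block 0 passed limma's test and 21 had an unadjusted p under 0.05 (29.6%, against 15.1% of all tested genes). With it 6 were called higher and 2 lower (11.3%, against 3.7%). Among them were Rps26 at 0.55 (0.365 without untreated replicate 1) and Rpl30 at -0.47 (-0.315 without doxycycline replicate 2). The widest change, 2.42 for Rpl35, had a limma adjusted p of 0.486, and without doxycycline replicate 2 it was -0.217. Many have near-identical copies, between which reads can be split, and the difference between both families was not tested.

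**Figure D4:**
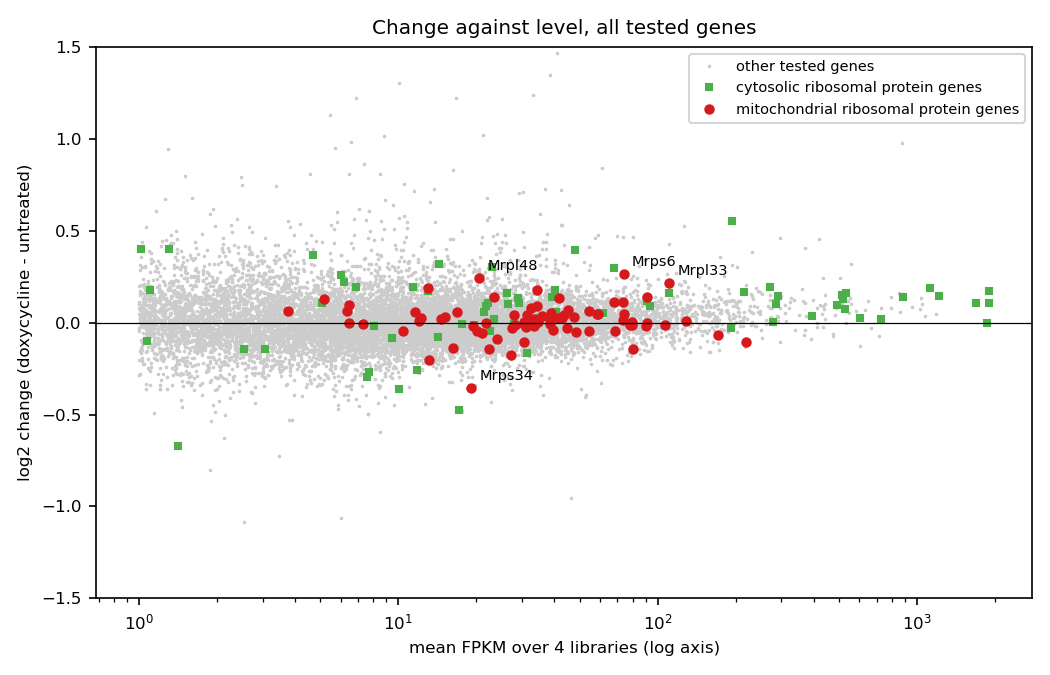
Log2 change with doxycycline on the log2(FPKM + 1) scale against the mean FPKM over 4 libraries (log axis) for all 11924 tested genes; red circles are mitochondrial and green squares cytosolic ribosomal protein genes, and 7 genes beyond 1.5, of which 1 is a cytosolic ribosomal protein gene, lie outside the plot. The red points cluster around 0 between 3.77 and 219 FPKM, with Mrps34 below and Mrps6, Mrpl33 and Mrpl48 above the rest.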

How the data were processed

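The deposited tables give FPKM per gene, 1 table per library, in which the authors adjusted fragments for length and library, per the file headers. The submitters' processing notes list TopHat2 2.0.6, Cufflinks 2.0.2, Cuffdiff and mm9. Annotation, strand setting and any further scaling are not given there or in the labels. FPKM were summed per symbol. No member was on several lines. Loci are from the table of doxycycline replicate 1, whose starts count from 0 and were raised by 1.

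The 11924 genes whose mean reached 1 FPKM entered a limma fit (limma 3.58.1, R 4.3.3) of log2(FPKM + 1) with a variance trend. Tests were two-sided, p-values were Benjamini-Hochberg adjusted over all of them, and 0.05 was the threshold. Changes on this scale understate those of low genes. The fit was tested on simulated data with independent noise and planted log2 changes of 1 in size. Every member's change was smaller than that, so the simulation does not show how well changes of their size are found. The block is the replicate number as a covariate. The design text names 2 clones for each condition, so same-numbered libraries were taken as 1 clone, which the titles do not state. Libraries with the same number deviated together from the group means, with a correlation of 0.215 over tested genes but 0.00107 over the members. With 2 libraries a group, p-values reflect only how these libraries vary, which may be technical, and residual degrees of freedom were 2, or 1 with the block. The members and lists were chosen with earlier results of these data known. Named genes are the 4 given markers, members past the threshold in either fit, the 10 largest changes of the same sign in both pairs, the 5 highest and lowest levels, those nearest 1 FPKM, members with special identities, and of other lists the called genes and the 3 largest changes; genes named for their neighbours, place or seed matches were added after their values were seen. Alternatives were another pseudocount (0.1), filters (none, 5 FPKM), 2 scalings, robust moderation, the highest line per symbol, the block and each library left out. Promoters (67 of 76 matched) and microRNAs are from RefSeq, UTRs and strands from GENCODE M21. Figures were drawn with matplotlib 3.10.9 in Python 3.11.15.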

Additional observations from a re-analysis of the deposited data

How the results depend on the processing

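With the replicate block, 3 members passed instead of 0, together with 1 assembly factor and 8 cytosolic ribosomal protein genes, and the number of genes called in all rose from 33 to 441. No other alternative called a member. Over all genes the count was 1 with no expression filter and 88 with a mean of at least 5 FPKM, and it ran from 2 (without untreated replicate 2) to 60 (without doxycycline replicate 1), at 5 without either other library. The cytosolic count ran from 0 to 2 when a library was left out. Over fits without a library the Mrps median of 0.02 ran from -3.19e-05 (without doxycycline replicate 2) to 0.0224, at 0.00883 without untreated replicate 1, and the Mrpl median of 0.01 from -0.00441 (without untreated replicate 2) to 0.0227. Mrps34 ran from -0.41 to -0.30 over the 12 alternatives (adjusted p 0.0164 to 0.374), Mrps6 from 0.14 to 0.38 (0.0406 to 0.610), Mrpl33 from 0.15 to 0.28 (0.0229 to 0.621) and Mpv17l2 was below 0 under each. Of 346 single-gene values under alternatives, 330 kept direction and side of the threshold and 14 newly passed. The 2 that changed sign, both without doxycycline replicate 2, were Mtif3 at 0.0117 and Rpl35 at -0.217 (down to -0.279 and up to 5.06 without doxycycline replicate 1), and the cause was not tested. With 2 libraries a group and unknown depth, the 95% interval of a typical member reached about 0.13 on the log2(FPKM + 1) scale to either side. That interval is not adjusted over genes. Larger changes also went uncalled without the block, such as -0.36 for Mrps34, so this fit could miss changes well above 0.13.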
